A study of Mus musculus with 20 samples.

Results

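The let-7 family and its relative miR-98 were followed through small RNA libraries of mouse liver. Every row named let-7a to let-7g, let-7i, let-7j, let-7k or miR-98 was taken, whatever its locus number or arm, which gave 22 rows of the 880 miRNA rows listed in every file (1509 rows occur in any file). Of these rows 9 were 5p arms of 22 bases, 11 were 3p arms, and let-7j and let-7k carried no arm suffix. A joined row held 2 names whose mature sequences are identical, let-7a-1-3p and let-7c-2-3p. Of the 22 rows 20 passed the filter on low counts and could be tested, and the other two, let-7a-2-3p and let-7g-3p, held 9 and 2 reads over all mice.

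The series compared 5 PiZ mice with 5 wild-type (WT) mice, all of the C57BL/6 strain and 6 weeks old. As background, the PiZ line carries the human gene for the Z form of alpha-1 antitrypsin, a secreted protease inhibitor that misfolds and accumulates in hepatocytes, and it keeps its own mouse Serpina1 genes. No label states whether the mice were male or female, and small RNA libraries do not read the transgene, so genotype is taken from the labels. Each mouse gave 1 library sequenced in 2 technical runs, which were added together.

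The let-7 miRNAs pair with messenger RNAs mainly through the seed, bases 2 to 8 of the mature strand, and lower the translation and stability of their targets, among which Hmga2, Lin28 and Ras genes are well known. They are abundant in differentiated adult tissues such as liver, and LIN28 proteins block their maturation in embryonic and stem cells. Since the 5p arms share a seed, members are generally taken to recognise overlapping sets of targets, while 3p arms have other seeds and usually accumulate to lower levels.

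The mature sequences are shown because the whole family is told apart by a few bases outside the seed, and because base composition enters the results. They come from RefSeq (GRCm38.p6), where all 23 names in the 22 rows were found, and capitals mark the seed.
mmu-let-7a-5p: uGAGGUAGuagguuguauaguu
mmu-let-7b-5p: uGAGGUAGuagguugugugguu
mmu-let-7c-5p: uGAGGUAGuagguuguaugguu
mmu-let-7d-5p: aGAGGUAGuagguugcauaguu
mmu-let-7e-5p: uGAGGUAGgagguuguauaguu
mmu-let-7f-5p: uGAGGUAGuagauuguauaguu
mmu-let-7g-5p: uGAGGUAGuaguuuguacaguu
mmu-let-7i-5p: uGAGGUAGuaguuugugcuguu
mmu-miR-98-5p: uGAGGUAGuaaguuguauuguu
mmu-let-7j: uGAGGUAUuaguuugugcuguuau
mmu-let-7k: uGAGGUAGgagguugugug
mmu-let-7d-3p: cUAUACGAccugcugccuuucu
mmu-let-7b-3p: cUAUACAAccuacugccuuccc
mmu-miR-98-3p: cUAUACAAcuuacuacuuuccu

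The seed GAGGUAG was carried by 10 names, the 9 5p arms and let-7k. The only other miRNA of the table with that seed, miR-1961, held 19 reads over all mice. Positions below count from 1 at the 5′ end, with the base of let-7a-5p first. let-7c-5p differs from let-7a-5p by A19G, let-7e-5p by U9G and let-7f-5p by G12A. let-7b-5p differs by A17G and A19G, let-7d-5p by U1A and U16C, let-7g-5p by G12U and U18C, and miR-98-5p by G11A and A19U. let-7i-5p is the most distant of the 5p arms, with G12U, A17G, U18C and A19U. The 36 pairs of 5p arms differ at 1 to 6 positions, and 4 pairs differ at only 1.

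let-7j and let-7k differ little from more abundant members. let-7j is let-7i-5p with G8U inside the seed and 2 more bases, and it stood at 0.0755 to 0.112 reads per let-7i-5p read in the 10 mice. let-7k is let-7b-5p with U9G and 3 bases fewer, at 0.0695 to 0.112 reads per let-7b-5p read. Among 3p arms the seed UAUACAA was shared by 5 names, those of let-7a-1, let-7c-2, let-7b, let-7f-1 and miR-98, whereas let-7d-3p has the seed UAUACGA.

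In GRCm38.p6 the hairpins lie on 9 chromosomes. let-7a-1, let-7f-1 and let-7d lie together in exons of the long noncoding RNA 6720427I07Rik on chromosome 13, and let-7c-2 and let-7b in exons of Lncppara on chromosome 15. let-7f-2 and miR-98 share an intron-borne cluster in Huwe1, a ubiquitin ligase gene on chromosome X. let-7g lies in an intron of Wdr82 on chromosome 9. Another 3 hairpins neighbour miR-99, miR-100 or miR-125 genes: let-7c-1 on chromosome 16 beside miR-99a, let-7e on chromosome 17 beside miR-99b and miR-125a, and let-7a-2 on chromosome 9 beside miR-100 and miR-125b-1. The 5p arms of let-7a, let-7c and let-7f each come from more than 1 hairpin, so their reads cannot be assigned to a locus.

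Libraries held 1307857 to 10780801 reads. The files come as a list of 1399 names (PiZ mice 1 and 2, WT mice 1 to 3) or of 990 names (PiZ mice 3 to 5, WT mice 4 and 5), called the longer and shorter file sets below. WT mice 1 and 3 stood apart. They had the fewest reads (1307857 and 1524426), and miR-22-3p, the most abundant miRNA, took 59.7% and 52.2% of their reads against 38.5% to 46.1% in the other 8 mice. The endothelial and mesenchymal marker sums were also low in both. Endothelial miRNAs stood at 7897 and 12653 CPM (reads scaled to a library of 1000000, with library sizes adjusted by TMM) against 23357 to 41279 CPM in the other 8 mice. Mesenchymal miRNAs, of which 4 of the 6 on the list were found by name, stood at 5211 and 7992 CPM against 9703 to 16662 CPM. Fold changes of family members named singly below are given with and without these mice, and those of marker miRNAs with all mice only. Of marker lists for 8 cell types, 6 had members that passed the filter (hepatocyte, immune, erythroid, mesenchymal, endothelial and biliary), and none of those members passed the genotype test. The summed level of 3 hepatocyte miRNAs was 6994 to 11656 CPM in PiZ and 11873 to 14422 CPM in WT mice, without overlap. Nearly all of it was miR-122-5p, at means of 9512 and 13013 CPM, while miR-802-5p and miR-122-3p had positive fold changes (log2 1.34, SE 0.64, and 0.05, SE 0.32). The sum of 6 immune cell miRNAs was 1895 to 3035 CPM in PiZ and 912 to 2171 CPM in WT mice. Only 4 of these 6 had a positive fold change. PiZ mouse 4 alone held more than traces of neural and muscle miRNAs (sums of 66.3 and 67.3 CPM, at most 2.20 and 2.46 CPM in the others). In whole liver, fewer cells of a type and less RNA per cell cannot be told apart, and the part of these lists in the results below was not tested.

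Family reads made up a like share of both genotypes. They were 3.81%, 4.68%, 4.94%, 4.71% and 4.67% of all miRNA reads in PiZ mice 1 to 5, and 4.77%, 3.53%, 4.36%, 5.55% and 5.05% in WT mice 1 to 5. The means (± SD, n = 5 each) were 4.56% ± 0.434 for PiZ and 4.65% ± 0.761 for WT mice. The PiZ range lay inside the WT range, and the difference of the mean log2 shares, -0.017, was small beside a pooled SD of 0.203. The 5p arms supplied 94.7% to 97.2% of family reads in every mouse.

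let-7f-5p led the family in 9 of 10 mice. Its level in PiZ mice 1 to 5 was 18509, 23369, 23677, 22481 and 26121 CPM, and in WT mice 1 to 5 it was 8332, 16954, 12005, 30962 and 28645 CPM. WT mice 1 to 3, all of the longer file set, lay below every PiZ mouse, and WT mice 4 and 5, of the shorter set, above every PiZ mouse. In WT mouse 1 let-7a-5p came first instead. Next in order of mean level were let-7a-5p (5672 to 8498 CPM in PiZ and 5794 to 13204 CPM in WT mice), let-7g-5p (4196 to 6962 and 4269 to 7084 CPM) and let-7c-5p (3334 to 4758 and 3916 to 9099 CPM). let-7i-5p, let-7d-5p and let-7b-5p followed, at means over all mice of 2274, 1524 and 1110 CPM.

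This order held in most animals. let-7a-5p exceeded let-7g-5p in 10 of 10 mice, let-7c-5p exceeded let-7i-5p in 10 and let-7d-5p exceeded let-7b-5p in 10. let-7g-5p exceeded let-7c-5p in 8 mice, the exceptions being WT mice 1 and 3, and let-7i-5p exceeded let-7d-5p in 9, the exception being WT mouse 1. let-7d-3p was the most abundant 3p arm, at a mean of 740 CPM, ahead of miR-98-5p at 365 CPM in 9 mice. Lower down, miR-98-5p and the joined let-7a-1-3p row exchanged places in 3 mice, let-7e-5p and let-7j in 3, and miR-98-3p and let-7f-2-3p in 5. These pairs were not separated, while others, such as let-7b-3p above let-7k and let-7k above let-7f-1-3p, kept their order in 10 mice. The rarest tested row was let-7c-1-3p, at 0.560 to 4.70 CPM.

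**Figure D1:**
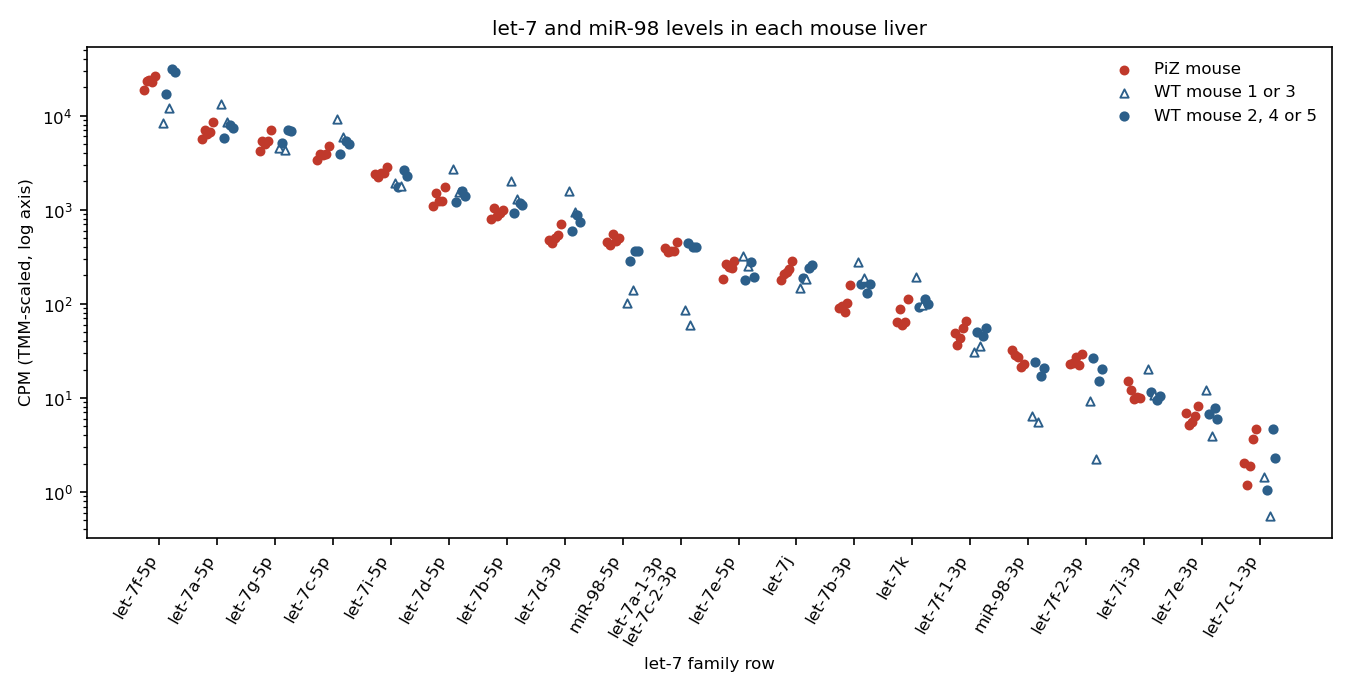
Level of each of the 20 tested rows (CPM with TMM-scaled library sizes, log axis), 1 point per mouse, ordered by mean. let-7f-5p is highest, miR-98-5p is the row whose PiZ points all lie above all WT points, and the open triangles of WT mice 1 and 3 leave the other WT mice in many rows.

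The spread within WT liver was widest through WT mice 1 and 3, in which the members were present in other proportions. let-7f-5p made up 18.7% and 32.3% of family reads there, against 45.0% to 52.3% in the other 8 mice. let-7a-5p made up 29.6% and 22.9% against 13.3% to 15.6%, and let-7c-5p 20.4% and 15.8% against 8.33% to 10.4%. The number of let-7f-5p reads per let-7a-5p read was 0.631 and 1.41, against 2.93 to 3.93 in the others. let-7f-5p and let-7a-5p differ only by G12A.

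**Figure D2:**
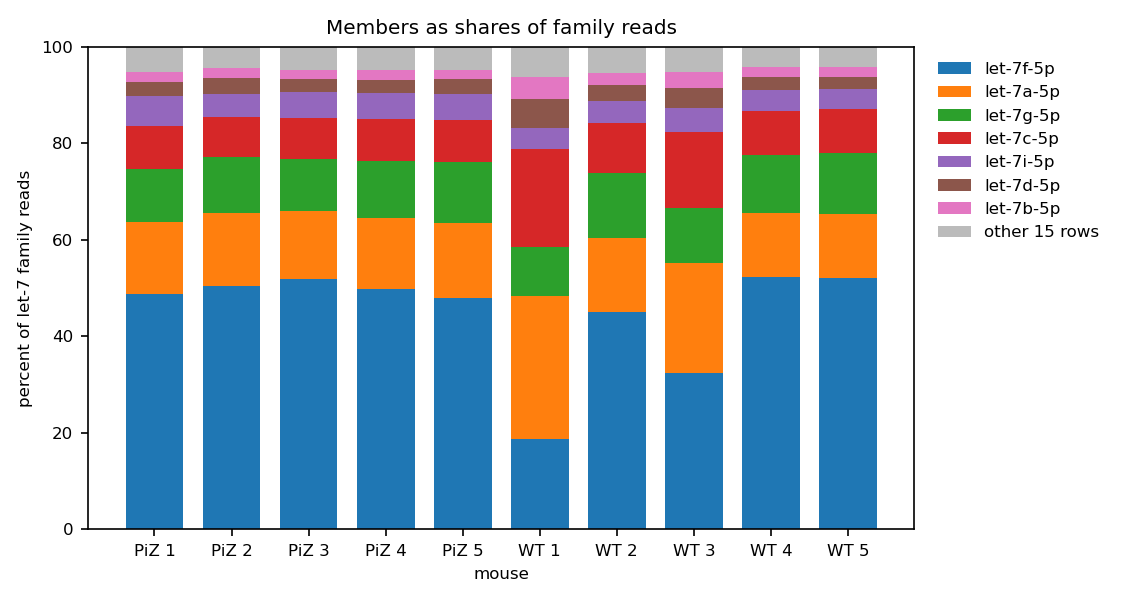
Shares of let-7 family reads (percent) taken by the 7 most abundant rows and by all other rows, 1 bar per mouse. The bars of WT mice 1 and 3 have the smallest let-7f-5p shares (18.7% and 32.3%) and the largest let-7a-5p and let-7c-5p shares.

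These shifts moved in part with base composition. The 9 5p arms hold 7 G or C bases of 22 (let-7f-5p and miR-98-5p) to 10 (let-7b-5p), that is 31.8% to 45.5%. Relative to the median mouse, log2 CPM in WT mouse 1 ran from -1.95 for miR-98-5p and -1.46 for let-7f-5p to 0.99 for let-7b-5p and 1.08 for let-7c-5p. WT mouse 3 ran from -1.48 for miR-98-5p to 0.44 for let-7c-5p. Arms of equal GC content also parted. At 36.4% let-7a-5p stood at 0.88 and let-7g-5p at -0.20 in WT mouse 1 (0.25 and -0.28 in WT mouse 3). At 40.9% let-7c-5p stood at 1.08 and let-7i-5p at -0.27 in WT mouse 1 (0.44 and -0.37 in WT mouse 3). Across the 9 arms the correlation of this relative log2 CPM with GC percent was r = 0.81 in WT mouse 1 and r = 0.80 in WT mouse 3. It was 0.36, 0.06 and -0.22 in WT mice 2, 4 and 5, and -0.66 to -0.29 in the PiZ mice.

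For WT mice 1 and 3 the same held across the table. Over 293 tested miRNAs with a RefSeq sequence the correlation was r = 0.66 in WT mouse 1 and r = 0.46 in WT mouse 3, and -0.17 to -0.06 in the others. With the family left out (273 miRNAs) it was 0.67 and 0.46. The miRNAs share a library and some share sequence, so these correlations describe the libraries and carry no p. This look at base composition, and the setting below that removes each library's trend with GC percent, were chosen after the data had been seen.

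**Figure D3:**
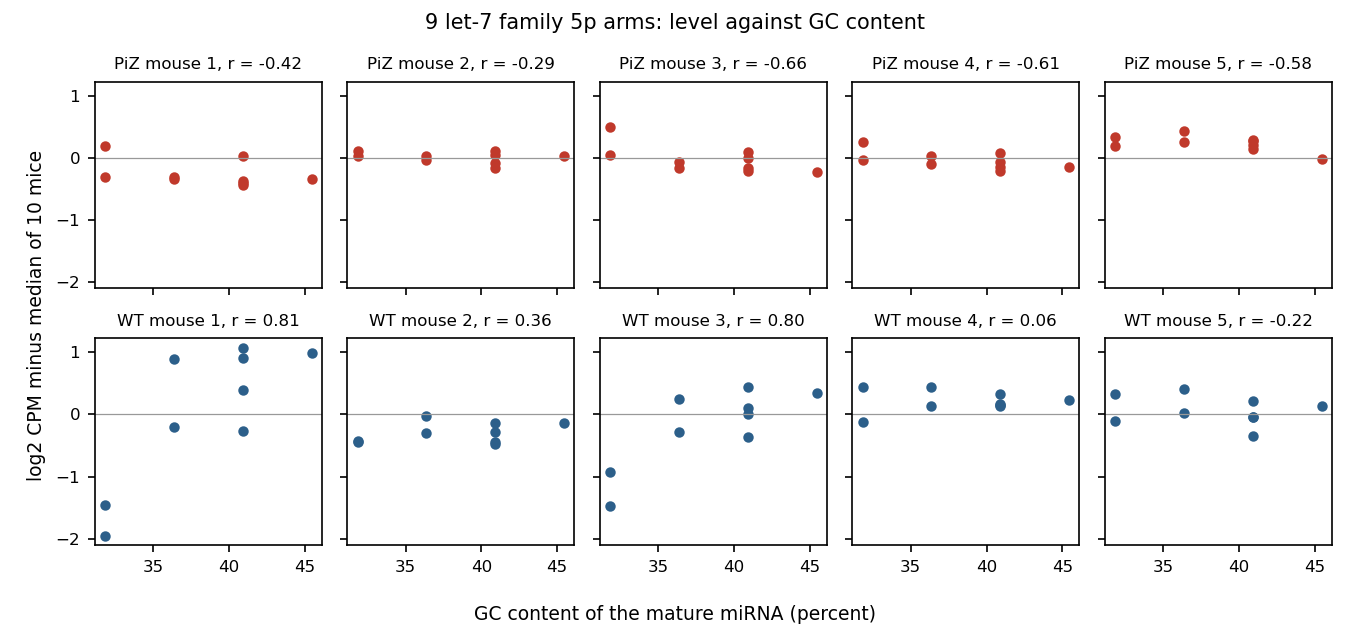
Log2 CPM of each of 9 let-7 family 5p arms minus its median over 10 mice, against the GC content of the mature sequence (percent), 1 panel per mouse. The points slope upward in WT mice 1 and 3 (r = 0.81 and 0.80), from about -2 or -1.5 at the lowest GC content to above 0.

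No member of the family passed the test between genotypes. edgeR's quasi-likelihood test with file set and genotype as terms called 0 of 20 members at a Benjamini-Hochberg adjusted p of 0.05, against 31 of all 336 miRNAs tested (9.23%). DESeq2 called 2 members, as given below. An unadjusted p under 0.05 was reached by 4 of 20 members, against 82 of 336 miRNAs (24.4%). The fitted log2 fold change of PiZ against WT was above 0 for 9 members and below 0 for 11, with a median of -0.01 beside 0.07 over all miRNAs tested. The 4 members with an unadjusted p under 0.05 were miR-98-5p, which leaned higher in PiZ, and let-7d-3p, let-7b-3p and let-7c-5p, which leaned lower. The balance of signs moved with the setting. With the GC trend removed 6 members lay above 0 and 14 below, with a median of -0.33 beside -0.04 over 293 miRNAs. The same 293 miRNAs with no GC correction gave 9, 11 and a member median of -0.05. Without WT mouse 1 the counts were 12 above and 8 below.

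miR-98-5p was the only member whose groups did not overlap, 1 of 20 against 8.93% of all miRNAs tested. Its levels were 450, 424, 554, 468 and 497 CPM in PiZ mice 1 to 5 and 102, 288, 141, 361 and 365 CPM in WT mice 1 to 5. All PiZ mice lay above all WT mice, and WT mice 1 and 3 were the lowest. The log2 fold change was 0.89 with SE 0.29 (adjusted p = 0.0894, edgeR quasi-likelihood test, Benjamini-Hochberg). Without WT mice 1 and 3 the groups, 424 to 554 and 288 to 365 CPM, were still apart, and the log2 fold change was 0.52 (adjusted p = 0.0774). It was 1.30 in the longer file set alone, which holds WT mice 1 and 3, and 0.47 in the shorter (adjusted p = 0.159 and 0.283). With each library's GC trend removed it was 0.34 (adjusted p = 0.124).

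The 3p arm from the same hairpin, miR-98-3p, stood at 31.9, 28.8, 26.9, 21.3 and 22.8 CPM in PiZ mice 1 to 5 and at 6.44, 24.0, 5.60, 17.3 and 20.7 CPM in WT mice 1 to 5. The groups overlapped only through WT mouse 2. Its log2 fold change was 0.79 with SE 0.39 (adjusted p = 0.220, edgeR) and 0.32 without WT mice 1 and 3. let-7f-2-3p, whose hairpin neighbours miR-98 in Huwe1, stood at 22.5 to 29.4 CPM in PiZ and 2.24 to 26.6 CPM in WT mice, with a log2 fold change of 0.71 and SE 0.45 (adjusted p = 0.371, edgeR), or 0.31 without WT mice 1 and 3 (adjusted p = 0.430). Its 2 lowest values, 9.30 and 2.24 CPM, were WT mice 1 and 3, from 13 and 4 reads.

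Set against other members, miR-98-5p was also higher in PiZ liver. The count of miR-98-5p reads per let-7f-5p read was 0.0243, 0.0181, 0.0234, 0.0208 and 0.0190 in PiZ mice 1 to 5 and 0.0122, 0.0170, 0.0118, 0.0116 and 0.0127 in WT mice 1 to 5. The means were 0.0211 ± 0.00268 and 0.0131 ± 0.00223 (SD, n = 5 each), without overlap. Both arms have 7 G or C bases of 22, and WT mice 1 and 3 lay within the range of the other WT mice here, unlike in the ratio of let-7f-5p to let-7a-5p. The ratio was chosen after its values had been seen and was not tested.

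**Figure D4:**
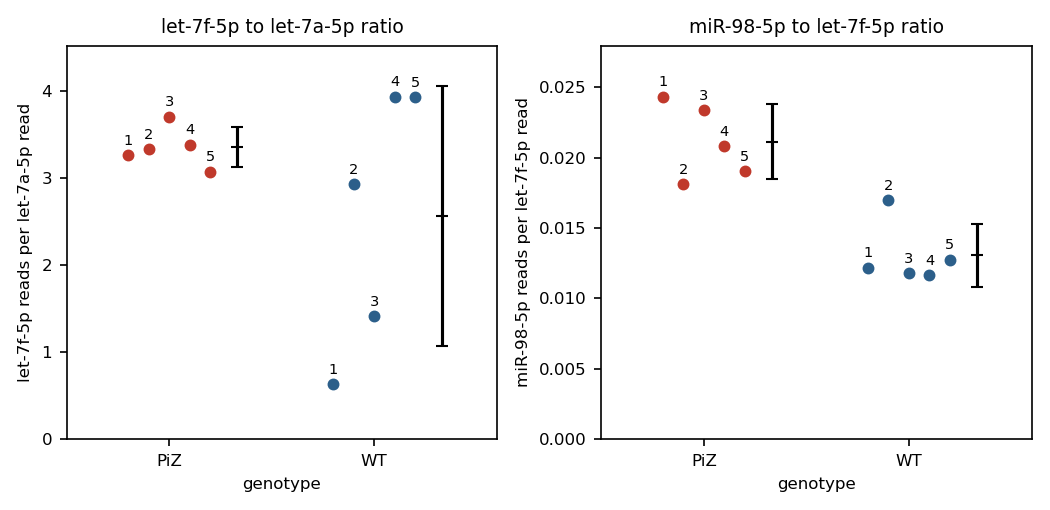
Reads of let-7f-5p per let-7a-5p read (left) and of miR-98-5p per let-7f-5p read (right) by genotype. Points are mice, numbered, and the bars give the mean and SD of 5 mice. On the left WT mice 1 and 3 fall to 0.631 and 1.41, and on the right all PiZ mice (0.0181 to 0.0243) lie above all WT mice (0.0116 to 0.0170).

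All 36 ratios between 5p arms were compared in the same way, as values with no test. PiZ and WT mice did not overlap in 13 of the 36 (36.1%). The ratios share arms, so they are not independent, and the share among pairs of other miRNAs was not computed. The 13 therefore have no background to be set against. The levels of miR-98-5p itself did not overlap, as given above, and all 8 of its ratios share that arm. Of the 8 ratios with miR-98-5p 7 did not overlap, with miR-98-5p the higher in PiZ, and the exception was that with let-7e-5p. Of the 28 ratios without it 6 did not overlap, and each of those 6 held let-7b-5p or let-7c-5p, which are encoded side by side on chromosome 15 (let-7c-5p also on chromosome 16). In all 6, let-7b-5p or let-7c-5p was the relatively lower one in PiZ, against let-7a-5p and let-7d-5p for both and against let-7e-5p and let-7i-5p for let-7c-5p. None of the 15 ratios without miR-98-5p, let-7b-5p and let-7c-5p separated the groups.

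One of these 6 was the ratio of let-7a-5p to let-7c-5p, 2 members that differ only by A19G. let-7a-5p reads per let-7c-5p read were 1.70, 1.82, 1.66, 1.70 and 1.79 in PiZ mice 1 to 5 and 1.45, 1.48, 1.45, 1.46 and 1.46 in WT mice 1 to 5. The means were 1.73 ± 0.0654 and 1.46 ± 0.0115 (SD, n = 5 each). WT mice 1 and 3 did not leave the other WT mice in this ratio. let-7c-5p reads per let-7i-5p read were 1.39 to 1.75 in PiZ and 2.05 to 4.71 in WT mice, and there WT mice 1 and 3 were the highest, at 4.71 and 3.25.

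let-7c-5p itself stood at 3334, 3853, 3842, 3902 and 4758 CPM in PiZ mice 1 to 5 and at 9099, 3916, 5861, 5396 and 4986 CPM in WT mice 1 to 5. PiZ mice 1 to 4 lay below all WT mice, and PiZ mouse 5 overlapped WT mouse 2. The log2 fold change was -0.56 with SE 0.24 (adjusted p = 0.186, edgeR) and -0.25 without WT mice 1 and 3 (adjusted p = 0.262). With the GC trend removed it was -0.85 (adjusted p = 0.130, edgeR). let-7b-5p ranged from 797 to 1031 CPM in PiZ and from 923 to 2006 CPM in WT mice. Its log2 fold change was -0.47 with SE 0.23 (adjusted p = 0.220, edgeR). This was -0.21 without WT mice 1 and 3 and -0.57 with the GC trend removed (adjusted p = 0.135, edgeR). let-7k ranged from 59.9 to 112 CPM in PiZ and from 92.3 to 192 CPM in WT mice. Its log2 fold change was -0.58 with SE 0.28 (adjusted p = 0.220, edgeR) and -0.37 without WT mice 1 and 3 (adjusted p = 0.384).

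The lowest estimates belonged to the 3p arms of let-7d and let-7b. let-7d-3p stood at 473, 446, 502, 539 and 707 CPM in PiZ mice 1 to 5 and at 1580, 597, 938, 882 and 732 CPM in WT mice 1 to 5. PiZ mice 1 to 4 lay below all WT mice and PiZ mouse 5 did not. The log2 fold change was -0.82 with SE 0.29 (adjusted p = 0.110, edgeR). Without WT mice 1 and 3 it was -0.44 (adjusted p = 0.132).

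let-7b-3p had the same arrangement of mice. Its levels were 89.6, 95.8, 81.5, 103 and 159 CPM in PiZ mice 1 to 5 and 280, 163, 187, 129 and 161 CPM in WT mice 1 to 5. PiZ mouse 5 alone overlapped the WT mice. The log2 fold change was -0.75 with SE 0.28 (adjusted p = 0.120, edgeR) and -0.51 without WT mice 1 and 3 (adjusted p = 0.222).

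Whether miR-98-5p, let-7d-3p and let-7b-3p passed the test turned on the setting. DESeq2 called let-7d-3p and let-7b-3p (adjusted p = 0.0243 and 0.0238), beside 14.9% of all miRNAs tested, and gave miR-98-5p an adjusted p of 0.0519. With no filter on low counts edgeR called all 3 (adjusted p = 0.0112, 0.0438 and 0.0403 for let-7d-3p, let-7b-3p and miR-98-5p), beside 9.74% of 852 miRNAs. Without PiZ mouse 5 it called let-7d-3p and let-7b-3p (adjusted p = 0.0492 and 0.0187), beside 15.8%. Without WT mice 1 and 3 it called no member (0.298% of all miRNAs), and without these and PiZ mouse 5 it called all 3, at log2 fold changes of -0.53, -0.72 and 0.54, where 24.4% of all miRNAs were called. With the GC trend removed it called let-7d-3p alone (adjusted p = 0.0495), beside 9.22% of 293 miRNAs. The sign of these 3 estimates was the same in all 27 other settings tried.

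For let-7f-5p, which led the family, the log2 fold change was 0.22 with SE 0.26 (adjusted p = 0.643, edgeR), and this sign rested on WT mice 1 and 3: without them the value was -0.10, in the shorter file set alone it was -0.32, and with the GC trend removed it was -0.38. let-7i-5p (2205 to 2844 CPM in PiZ and 1722 to 2629 CPM in WT mice) had 0.21 with SE 0.16 (adjusted p = 0.452, edgeR), or 0.20 without WT mice 1 and 3 and -0.04 with the GC trend removed. let-7a-5p and let-7d-5p had log2 fold changes of -0.31 and -0.29, each with an SE of 0.24 to 0.26, which came to -0.01 and -0.02 without WT mice 1 and 3. With the GC trend removed they moved the other way, to -0.83 and -0.58 (adjusted p = 0.229 and 0.301, edgeR).

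The other 8 tested members had estimates smaller than their SE, between -0.16 and 0.46 on the log2 scale. They were let-7g-5p, let-7e-5p, let-7j, let-7c-1-3p, let-7e-3p, let-7f-1-3p, let-7i-3p and the joined row of let-7a-1-3p and let-7c-2-3p. The joined row reached the upper end through WT mice 1 and 3, which stood at 86.5 and 59.4 CPM while the other 8 mice lay between 354 and 457 CPM. let-7e-5p lay at 183 to 285 CPM in PiZ and 177 to 325 CPM in WT mice, and let-7j at 180.5 to 286 and 147 to 255 CPM. All 8 took the opposite sign under some setting, so no direction is given for them. This happened in 1 of 27 other settings each for let-7g-5p and let-7e-3p, and in 10 of 27 for let-7i-3p. Under the other settings the estimates of the 8 ran from -0.57 (let-7g-5p with the GC trend removed) to 0.96.

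**Figure D5:**
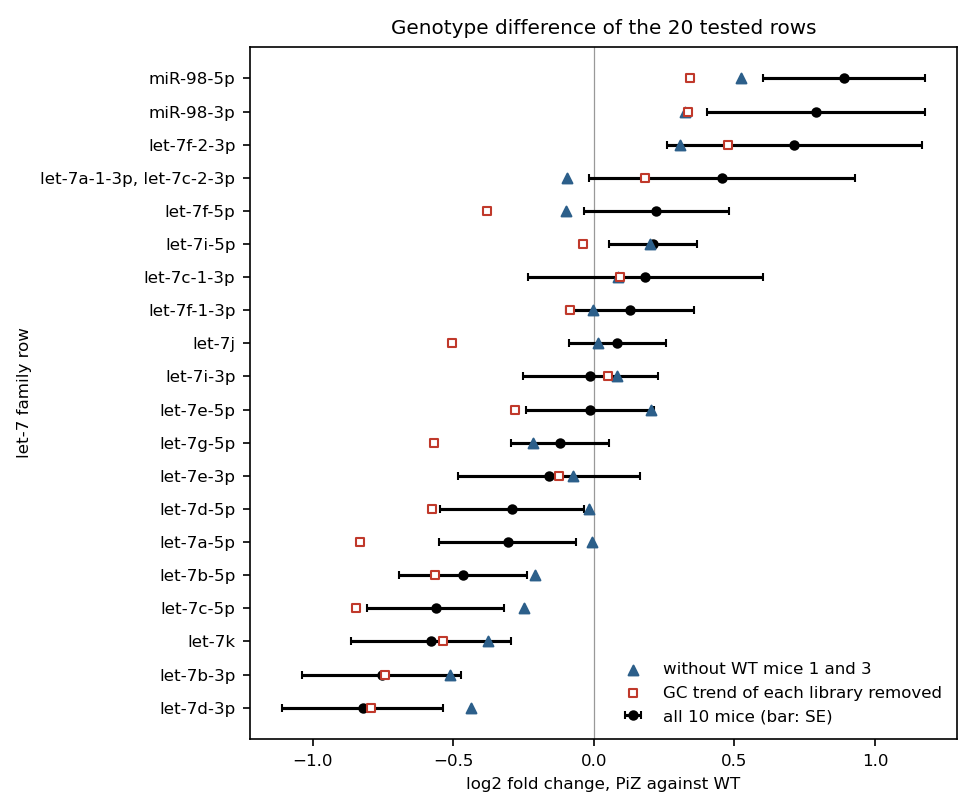
Log2 fold change of PiZ against WT for the 20 tested rows in edgeR's fit of all 10 mice (black, bars are SE), without WT mice 1 and 3 (blue triangles) and with each library's GC trend removed (open red squares). Most estimates move toward 0 without WT mice 1 and 3, and those of miR-98-5p, let-7d-3p and let-7b-3p keep their side of 0 in all 3.

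Both arms of a hairpin arise from 1 precursor, so the balance of 5p against 3p reads (a log2 ratio) does not depend on library scaling. limma tested 64 hairpins and called none of them (0%), of let-7 hairpins 0 of 5, and 2 of the 64 had an unadjusted p under 0.05. For let-7d the ratio was 1.21, 1.74, 1.31, 1.20 and 1.30 in PiZ mice 1 to 5 and 0.78, 1.00, 0.72, 0.85 and 0.93 in WT mice 1 to 5, without overlap. How many of the 64 hairpins were without overlap was not counted, so this one has no background to be set against. The fitted difference was 0.51 with SE 0.21 (adjusted p = 0.573, limma), or 0.41 without WT mice 1 and 3. The differences of let-7b (0.33, SE 0.25), let-7i (0.21, SE 0.24) and let-7e (0.13, SE 0.31) were smaller. miR-98, both of whose arms leaned higher in PiZ, had -0.01 with SE 0.25, and its sign varied between settings, as did that of let-7e when PiZ mouse 2 was left out.

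No member differed between the file sets beyond the test. The file set term called 2 of 336 miRNAs (0.595%) and 0 of 20 members in edgeR, with an unadjusted p under 0.05 for 4 members, against 31 of 336 miRNAs (9.23%). The test of whether the genotype difference itself varied between file sets called 0 of 336 miRNAs (0%), with 13 at an unadjusted p under 0.05, among them let-7f-5p alone of the members (1.06 with SE 0.43, adjusted p = 0.883). Without WT mouse 2, the WT mouse of the longer set that did not stand apart, 18 of 336 miRNAs (5.36%) passed that test. Among them were 4 members: let-7f-5p, miR-98-5p, miR-98-3p and the joined let-7a-1-3p row.

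The miRNAs encoded beside let-7 hairpins gave no call either. Of 11 rows of miR-99, miR-100 and miR-125, a group of miRNAs that often share primary transcripts with let-7, 10 were tested. In edgeR 0 of the 10 passed, against 31 of all 336 miRNAs tested (9.23%). Their log2 fold changes lay between -0.37 and 0.20, with 8 below 0 and a median of -0.11, beside 0.07 over all miRNAs tested. miR-125a-5p was the most abundant, at 1060.3 to 1738 CPM in PiZ and 979 to 2187 CPM in WT mice. miR-100-5p, miR-99a-5p and miR-125b-5p were each highest among PiZ livers in PiZ mouse 5, at 584, 501 and 1662 CPM against at most 286, 311 and 681 CPM in the other PiZ mice.

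Outside the family, the 5 miRNAs whose log2 CPM followed that of the summed family most closely over the 10 mice were miR-3105-3p (Pearson r = 0.73), miR-26a-2-3p (0.69), miR-185-3p (0.68), miR-3968 (0.61) and miR-375-3p (0.60). All 5 were rare, at group means of 1.85 to 24.3 CPM, and the mice share libraries and scaling, so the values describe likeness only.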

How the data were processed

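Small RNA of 10 mouse livers was sequenced from TruSeq small RNA libraries, each in 2 technical runs, as the labels' protocols state. The authors deposited 20 files of estimated counts per mature miRNA. The submitters' processing notes name CASAVA. Not given in the sources used here are the aligner, the genome, the miRBase release and how reads matching several miRNAs were shared, so no coordinates are printed. The deposited counts of the 9 5p arms were fractional in places. All 172 fractional values were whole multiples of 1/120 (within 0.01 after multiplication) and the family sum was whole in 20 of 20 runs, so counts of near-identical members depend on how reads were shared.

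Counts were summed over the runs of a mouse and rounded. Runs of 1 mouse differed little more than sampling (chi-square per degree of freedom 1.06 to 1.40), mice of 1 genotype far more (102 to 1592). The 880 rows listed in every file held nearly all reads. edgeR 4.0.16 (filterByExpr, TMM, quasi-likelihood F-test, terms file set and genotype, Benjamini-Hochberg over 336 miRNAs, threshold 0.05) gave fold changes, with SE derived from the F statistic (fold change over its root). limma 3.58.1 tested arm ratios (pseudocount 0.5, at least 20 mean reads per arm). A pseudocount of 0.5 CPM was used for likeness and GC values. The GC setting removed a lowess trend as an offset, over the 87.2% of tested miRNAs with a sequence. DESeq2 1.42.0, other scalings and filters, limma-voom, single runs, each file set and each mouse left out were alternatives, run in R 4.3.3; Python 3.11.15 with scipy 1.17.1 and matplotlib 3.10.9 did the rest. One read was worth 0.0887 to 0.715 CPM. On data simulated from these libraries for PiZ against WT (360 miRNAs), edgeR recovered 15 of 36 true 2-fold changes, 32 of 36 of 4-fold and 27 of 27 of 8-fold. It called 2 of 261 unchanged miRNAs. The simulation drew each miRNA independently, with no file set difference and no GC trend, so recovery in the real libraries may differ.

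The members, marker lists and tests were chosen with earlier results of these data known. Every tested member was named by rule, with the tested neighbours of the miR-99, miR-100 and miR-125 group, the 5 most alike miRNAs and miR-22-3p. Fold changes of the neighbours, and of 8 members with estimates under their SE, are given as ranges. That of let-7f-5p, also under its SE, is given singly. This choice was settled after the values were seen.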

Additional observations from a re-analysis of the deposited data

Results flagged for a closer look

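In groups of 5 mice, the gap between the extreme mouse and its nearest neighbour was compared with the range of the group, over 42 groups (each tested row and the family share in each genotype). It exceeded the limit of 0.71 in 3, where chance, which flags about 1 group in 20, gives 2.1. WT mouse 1 was the highest WT mouse for let-7i-3p, at 20.02 CPM against 9.40 to 11.5 CPM in the others, with a gap of 0.738 of the range on the log2 scale. WT mouse 1 was also the highest for let-7k, at 192 CPM against 92.3 to 112 CPM, with a gap of 0.732. PiZ mouse 1 had the lowest family share of the PiZ mice, 3.81% against 4.67% to 4.94%, with a gap of 0.759.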

How the results depend on the processing

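The count of 31 changed miRNAs became 83 with no filter, 2 with a filter of 5 CPM in 5 libraries, 50 with DESeq2, 7 with limma-voom, 19 with run 1 only, 0 in the shorter file set alone, 1 without WT mice 1 and 3, and 82 without these and PiZ mouse 5. It was 8 to 53 with each mouse left out, the lowest without WT mouse 4 or 5 and the highest without PiZ mouse 5. The count of changed family members, 0 of 20, was 3 with no filter, 2 with DESeq2, 3 without WT mice 1 and 3 and PiZ mouse 5, 1 with the GC trend removed, and 0 to 2 with each mouse left out. Members whose genotype effect differed between file sets were 0, and 0 to 4 with each mouse left out, the 4 being among 18 of 336 miRNAs without WT mouse 2. The settings that leave out WT mice 1 and 3, or remove the GC trend, were chosen with the data seen.

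let-7f-5p (0.22 with all mice) reversed to -0.32 in the shorter file set, -0.10 without WT mice 1 and 3, -0.11 without these and PiZ mouse 5, and -0.38 with the GC trend removed. let-7i-5p reversed to -0.039 with the GC trend removed. The miR-98 arm difference of -0.01 reversed to 0.15 with a pseudocount of 5, 0.071 with genotype as the only term, 0.16 in the shorter file set and 0.20 without WT mice 1 and 3, and was -0.10 to 0.13 with each mouse left out. That of let-7e was -0.042 to 0.34 with each mouse left out. The causes were not tested. For the 8 members given only as a range, 39 of 215 values under other settings had the opposite sign and 0 were called. For the 10 neighbours 48 values had the opposite sign and 0 were called. With the same 293 miRNAs and no GC correction, miR-98-5p stood at 0.85.

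No paired analysis was possible because the numbers shared in the labels mark technical runs of 1 library, and those of the mice name different animals. In WT mice 1 and 3 rows of a few CPM rest on under 10 reads, which limits the precision of their fold changes.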
